A study of Mus musculus with 16 samples.

Results

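The genes described here encode the ligands, receptors, inhibitors and intracellular core of the Wnt pathway, as seen on arrays of femur and of white fat from AEA001 line mice and wild-type mice. They were taken by gene symbol from the array annotation: the Wnt, Frizzled (Fzd), Sfrp, Dkk, R-spondin (Rspo), Kremen and Lgr4 to Lgr6 families, with Dkkl1, Lrp5, Lrp6, Wif1, Sost, Sostdc1, Axin2, Apc, Ctnnb1, Lef1 and the Tcf7-like genes, and without Sfrp5. This gave 54 of 16593 genes, on 77 of the 25697 probes, 23978 of which carried a gene symbol. Tcf7, Axin1 and Lgr4 were not analysed here.

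The series compared male C3HeB/FeJ mice at 17 weeks of age, 4 of line AEA001 and 4 wild type, in both tissues, so that 16 Illumina bead arrays fell into 4 groups of 4. AEA001 arose from mutagenesis with ENU (N-ethyl-N-nitrosourea, which causes point mutations) and carries a mutation in Ednra, the endothelin receptor type A gene. The level of Ednra itself is not analysed here. The groups were femur of AEA001 mutant mice, femur of wild-type mice, white adipose tissue of AEA001 mutant mice and white adipose tissue of wild-type mice, and all mice shared the strain, sex and age. The labels gave femur and white adipose tissue of a mouse the same identifier, but only 7 identifiers for 8 mice, since AEA001 mutant replicate 4 and wild type replicate 3 shared 1. Values are the authors' normalized intensities in array units on a linear scale. Intensities below 16 were set to 16 before log2, and a probe was tested if at least 4 of the arrays fitted were above 16. Each gene is given by its brightest tested probe, and all folds are between arrays for 1 probe, not between genes. P-values measure the spread between arrays within groups, and their precision is limited by how many arrays there were. Unless a block is named, fits of all 16 arrays took both tissues of a mouse as independent.

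Wnt proteins are secreted lipid-modified ligands that bind Frizzled receptors together with the co-receptors Lrp5 and Lrp6. In the β-catenin branch, binding stops a destruction complex built on Axin and Apc from degrading β-catenin (Ctnnb1), which then drives transcription with TCF and LEF factors. R-spondins, acting through Lgr receptors, keep Frizzled receptors at the cell surface, while Sfrp proteins and Wif1 bind the ligands and Dkk1 and sclerostin (Sost) block the co-receptors. In bone the pathway promotes osteoblast formation, and in fat precursors β-catenin signalling restrains adipocyte formation.

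Across the arrays, the median intensity was between 25.2 and 25.3 and between 14204 and 14227 probes exceeded 16. The tissue labels were borne out by defining markers, with osteoblast, granulocyte and skeletal muscle genes high in femur and adipocyte genes high in white adipose tissue. Femur therefore held bone, marrow and muscle RNA together. The white fat array of AEA001 mutant replicate 2 also carried femur transcripts: of 71 probes with a mean over 1000 in femur and at or below 16 on the 7 other white adipose arrays, 61 exceeded 16 there, at a median of 1.58% of the femur signal. In bulk tissue, fewer cells of a type and less RNA per cell cannot be told apart.

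The promoters of 4 members are printed first, since TCF and LEF factors bind close variants of the letters CTTTGAT and CTTTGAA, and Axin2 is the pathway's standard target gene. RefSeq (GRCm38.p6) gave 42 promoter windows for 34 of the 54 genes, each taken as the 250 bases before the gene start. Either motif, searched on both strands, was present in 3 of the 42 windows (7.14%) and in 7.48% of all 32851 windows of the table. Below, capitals mark a motif. Dkk1 held CTTTGAA 117 bases before its start. Wnt5b had 3 windows, of which only 1, printed here, held a motif, CTTTGAT at 71 bases before the start. The windows of Axin2 and Wif1 held neither, which says only that these letters are not in these windows. The printed windows were chr11:108920099-108920348 on the plus strand for Axin2, chr10:121033754-121034003 on the plus strand for Wif1, chr19:30549497-30549746 on the minus strand for Dkk1 and chr6:119449387-119449636 on the minus strand for Wnt5b.
Axin2: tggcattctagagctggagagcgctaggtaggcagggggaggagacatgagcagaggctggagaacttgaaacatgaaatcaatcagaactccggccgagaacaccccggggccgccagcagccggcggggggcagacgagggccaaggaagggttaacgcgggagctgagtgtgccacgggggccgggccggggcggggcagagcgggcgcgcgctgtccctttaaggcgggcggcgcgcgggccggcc
Wif1: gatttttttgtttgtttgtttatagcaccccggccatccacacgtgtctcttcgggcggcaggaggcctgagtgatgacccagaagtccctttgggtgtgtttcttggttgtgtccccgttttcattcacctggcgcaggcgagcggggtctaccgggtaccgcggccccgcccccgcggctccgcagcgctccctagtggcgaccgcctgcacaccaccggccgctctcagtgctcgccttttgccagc
Dkk1: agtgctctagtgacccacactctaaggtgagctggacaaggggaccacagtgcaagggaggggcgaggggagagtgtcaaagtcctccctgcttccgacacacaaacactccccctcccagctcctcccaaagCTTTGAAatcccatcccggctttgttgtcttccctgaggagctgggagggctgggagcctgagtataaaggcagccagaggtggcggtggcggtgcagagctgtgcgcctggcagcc
Wnt5b: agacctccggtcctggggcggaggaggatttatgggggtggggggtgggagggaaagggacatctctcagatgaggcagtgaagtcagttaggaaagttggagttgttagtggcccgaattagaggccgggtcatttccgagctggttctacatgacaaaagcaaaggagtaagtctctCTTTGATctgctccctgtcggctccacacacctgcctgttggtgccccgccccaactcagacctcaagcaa

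Many members were not above 16 in these tissues. For 16 of the 54 genes, every probe stayed at or below 16 on all 16 arrays: Wnt1, Wnt3, Wnt3a, Wnt6, Wnt7a, Wnt7b, Wnt8a, Wnt8b, Wnt9b, Wnt10b, Sfrp4, Dkk2, Dkk4, Sostdc1, Lgr6 and Rspo4. These were 10 of the 19 Wnt ligands listed and 6 genes of other families. Sost, which osteocytes use to restrain bone formation, was above 16 on a single array. It gave 2.03, 7.42, 30.5 and 4.08 in AEA001 mutant femurs and 15.6, -2.70, 4.96 and -6.03 in wild-type femurs, so it was not tested. Dmp1, another osteocyte gene, was also dim in femur while Phex and Mepe were bright, so a dim probe does not show that a gene was silent. In all, 33 genes (42 probes) were tested between tissues, 28 genes (34 probes) between genotypes in femur and 25 genes (31 probes) between genotypes in white adipose tissue.

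**Figure D1:**
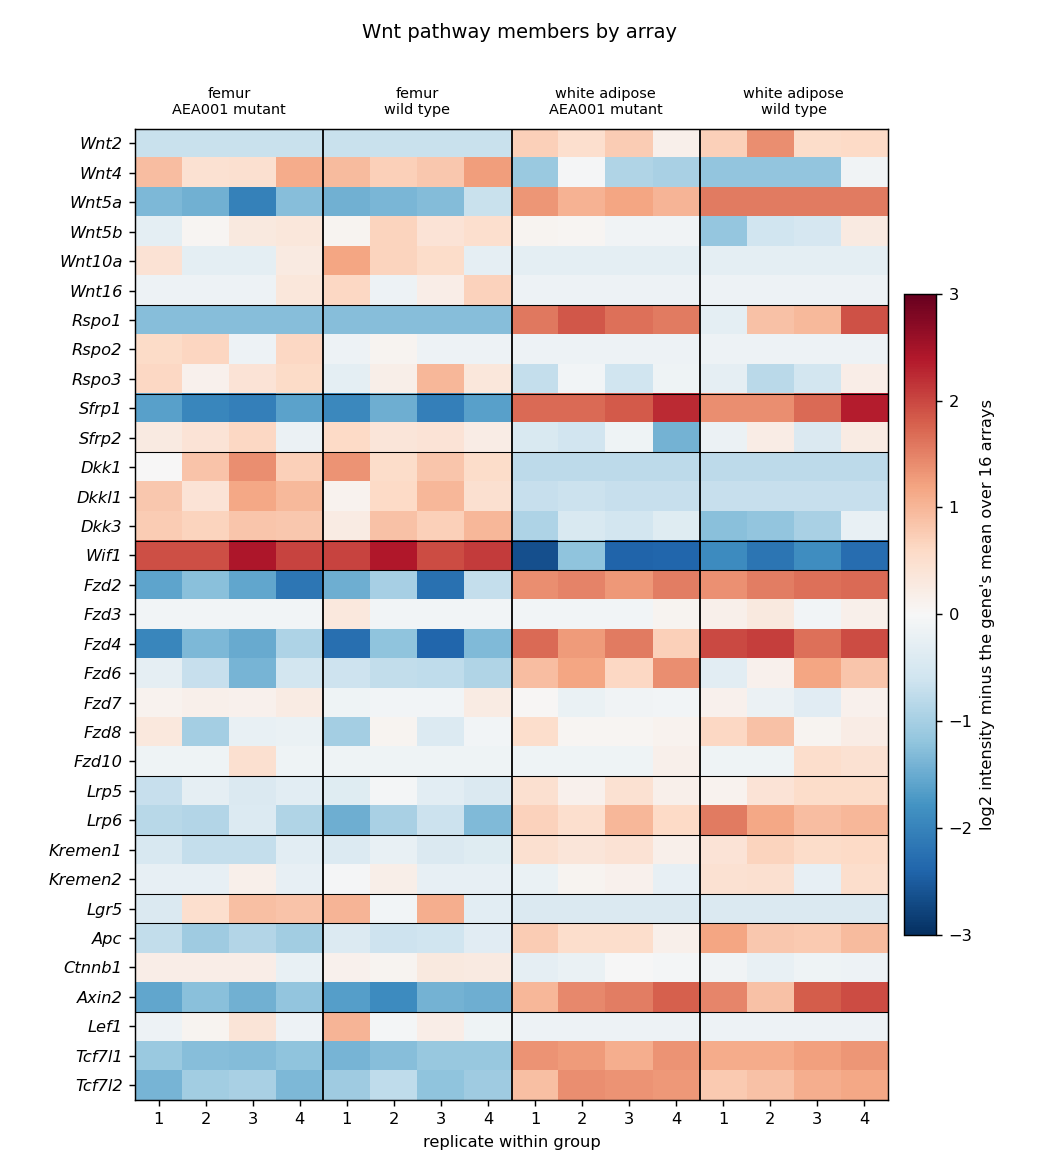
Log2 intensity of the 33 tested members on each of the 16 arrays, minus the gene's own mean over the 16 arrays (colour scale; intensities below 16 set to 16), with femur at the left, white adipose tissue at the right and AEA001 mutant arrays left of wild-type arrays in each tissue. Wif1, Dkk1, Dkk3 and Wnt4 are above their means in femur and Sfrp1, Axin2, Wnt5a, Fzd2, Fzd4, Tcf7l1 and Tcf7l2 above theirs in white adipose tissue, in both genotypes.

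The members separated by tissue far more than by genotype. Dkk1, Dkk3, Dkkl1 and Wif1 were higher in femur. Sfrp1, the Frizzled receptors that were called, both Lrp co-receptors, Axin2 and the TCF factors were lower in femur than in white adipose tissue. Between tissues, limma called 29 of 42 member probes in AEA001 mutant mice (69.0%), against 71.4% of all 15993 probes, and 31 of 42 in wild-type mice (73.8%), against 72.3% of all probes. The share of members called was thus near that of all probes, and the description below is of which members lay on which side. By gene, 9 of 33 were higher and 14 lower in mutant femur, and 11 were higher and 15 lower in wild-type femur. Over all probes, 33.2% were called higher and 38.3% lower in mutant femur, and 33.6% higher and 38.7% lower in wild-type femur. Of 42 member probes, 10 passed the filter through femur alone and 7 through white adipose tissue alone, and these had little choice of direction. The Dkk1 and Dkkl1 probes were among those 10, so of the 3 tested Dkk genes only Dkk3 was free to go either way. The Wnt10a, Wnt16, Rspo2, Lgr5 and Lef1 probes were also among the 10, and those of Wnt2 and Rspo1 were among the 7. Among the 24 probes tested in both tissues, 7 were higher, 13 lower and 4 not called in mutant femur, and 7 were higher, 14 lower and 3 not called in wild-type femur.

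Among the ligands, Wnt4 was higher and Wnt5a and Wnt2 were lower in femur in both genotypes. Wnt4 gave 69.2, 50.2, 51.2 and 79.1 in AEA001 mutant femurs and 71.2, 60.3, 64.1 and 86.7 in wild-type femurs, against 16.98, 35.7, 19.5 and 18.8 in mutant and 5.74, 12.7, 13.7 and 33.97 in wild-type white adipose tissue. All 8 femur arrays lay above all 8 white adipose arrays. The femur minus white adipose difference was 1.497 ± 0.27 (log2, SE) in mutant mice (limma adjusted p = 1.20e-04) and 1.86 ± 0.27 in wild-type mice (adjusted p = 1.36e-05). A dimmer Wnt4 probe had the same sign and was not called, at 0.34 in mutant mice (limma adjusted p = 0.18) and 0.40 in wild-type mice (adjusted p = 0.118).

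Wnt5a, known mainly for signalling without β-catenin, ran the other way. It gave 56.7, 52.5, 35.2 and 59.3 in AEA001 mutant femurs and 52.6, 55.9, 58.6 and 90.5 in wild-type femurs, against 361, 297, 328 and 289 in mutant and 424, 424, 424 and 425 in wild-type white adipose tissue. No femur array reached any white adipose array, and the difference was -2.67 ± 0.17 in mutant mice (limma adjusted p = 1.09e-09) and -2.76 ± 0.17 in wild-type mice (adjusted p = 7.23e-10). The 4 wild-type white adipose values, 424 ± 0.626 (SD, n = 4), were almost equal, and the dimmer Wnt5a probe of the same arrays spread more, with 91.6, 110.3, 125 and 89.1.

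Wnt2 was at or below 16 on all 8 femur arrays. It gave 41.5, 36.03, 42.8 and 28.1 in AEA001 mutant and 41.6, 66.9, 37.1 and 38.7 in wild-type white adipose tissue, so it was at least 2.29-fold lower in mutant femur (limma adjusted p = 7.13e-06) and at least 2.79-fold lower in wild-type femur (adjusted p = 6.15e-07). Wnt5b, Wnt10a and Wnt16 were higher in wild-type femur, by 0.91 ± 0.23 (limma adjusted p = 0.00219), at least 1.76-fold (adjusted p = 0.00512) and at least 1.405-fold (adjusted p = 0.0109). In mutant mice their differences were 0.12 ± 0.23, 0.32 ± 0.23 and 0.12 ± 0.16, with limma adjusted p of 0.668, 0.227 and 0.503, and the test of the genotype effect between tissues called none of the 3. These ligands were dim, and a floor of 32 ended the call of Wnt10a in wild-type mice (limma adjusted p = 0.229), of Wnt16 there, which then showed no difference, and of Wnt2 in mutant mice (adjusted p = 0.185). Another Wnt16 probe was not called in wild-type mice (limma adjusted p = 0.349), and the called one failed the filter when femur replicate 4 of the mutants or replicate 1, 3 or 4 of the wild type was left out.

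Of the 3 tested R-spondins, Rspo1 passed the filter through white adipose tissue alone and Rspo2 through femur alone, so their directions were nearly fixed. Only Rspo3 was free to go either way. Rspo1 was at or below 16 on all 8 femur arrays, and gave 116, 141, 121 and 114 in AEA001 mutant and 31.6, 71.3, 76.00 and 146 in wild-type white adipose tissue. It was at least 7.65-fold lower in mutant femur (limma adjusted p = 2.20e-07) and at least 4.42-fold lower in wild-type femur (adjusted p = 7.88e-06). Rspo3 was higher in femur, by 0.82 ± 0.26 in mutant mice (limma adjusted p = 0.00979) and 0.66 ± 0.26 in wild-type mice (adjusted p = 0.031). The Rspo3 call in wild-type mice was lost without wild type femur replicate 3 (limma adjusted p = 0.119) or 4 (0.0578), without wild type white adipose replicate 2 (0.102) or 3 (0.0753), and without both animals that share an identifier (0.243). Rspo2 was at or below 16 on all 8 white adipose arrays and was called in mutant mice alone, at least 1.49-fold higher in femur (limma adjusted p = 0.00168), against 0.06 ± 0.14 in wild-type mice (adjusted p = 0.706). Its 4 values above 16 all lay below 32, so it showed no difference with a floor at 32, and it failed the filter without mutant femur replicate 1, 2 or 4 or wild type femur replicate 2. Lgr5, a receptor for R-spondins, was at or below 16 on all 8 white adipose arrays and at least 1.87-fold higher in mutant femur (limma adjusted p = 0.0166) and at least 1.83-fold higher in wild-type femur (adjusted p = 0.02). With a floor of 32 neither Lgr5 call held, with limma adjusted p of 0.252 in mutant and 0.0835 in wild-type mice. The mutant call was also lost without mutant femur replicate 3 (0.0565) or 4 (0.0529), and the wild-type call without wild type femur replicate 1 (0.0734) or 3 (0.0752).

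Among the secreted inhibitors, Wif1, which binds Wnt ligands outside the cell, had the highest femur minus white adipose difference of the members. It gave 589.8, 591, 824 and 624 in AEA001 mutant femurs and 628, 814, 594 and 661 in wild-type femurs, against 24.8, 66.9, 29.01 and 29.8 in mutant and 41.9, 33.6, 42.4 and 31.6 in wild-type white adipose tissue. The tissues did not overlap, and the difference was 4.23 ± 0.24 in mutant mice (limma adjusted p = 2.36e-10), which is 18.8-fold, and 4.17 ± 0.24 in wild-type mice (adjusted p = 2.72e-10), which is 18.1-fold. The highest white adipose value, 66.9, was on the array of AEA001 mutant replicate 2 that carried femur transcripts. A share of 1.58% of the mean of the mutant femurs would be 10.4. Without that array the mutant difference was 4.55 ± 0.15 (limma adjusted p = 1.87e-12), that of Wnt4 was 1.74 ± 0.25 (adjusted p = 1.83e-05) and that of Dkk3 was 1.39 ± 0.23 (adjusted p = 7.94e-05), so these differences did not rest on it.

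Dkk1, which blocks Lrp5 and Lrp6, was at or below 16 on all 8 white adipose arrays. It gave 27.9, 49.9, 71.9 and 45.4 in AEA001 mutant femurs and 69.98, 40.2, 49.2 and 40.1 in wild-type femurs, at least 2.89-fold higher in mutant femur (limma adjusted p = 1.38e-05) and at least 3.03-fold higher in wild-type femur (adjusted p = 8.41e-06). Dkk3, a secreted family member, gave 549, 513, 576 and 564 in AEA001 mutant femurs and 384, 597, 529 and 641 in wild-type femurs, against 169, 236, 220.2 and 249.96 in mutant and 135, 142, 164 and 277 in wild-type white adipose tissue. All femur values lay above all white adipose values, by 1.34 ± 0.21 in mutant mice (limma adjusted p = 2.67e-05) and 1.62 ± 0.21 in wild-type mice (adjusted p = 3.61e-06). Dkkl1, related to Dkk3, was higher in femur by 1.52 ± 0.17 in mutant mice (limma adjusted p = 5.34e-07) and at least 2.37-fold in wild-type mice (adjusted p = 5.14e-06), but its dimmer probe was called in neither (limma adjusted p = 0.102 in mutant and 0.117 in wild-type mice), and the wild-type call was lost with a floor of 32 (adjusted p = 0.105).

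Sfrp1, a secreted decoy that binds Wnt ligands, was on the opposite side to Wif1 and the Dkk genes. It gave 52.1, 41.00, 38.6 and 52.5 in AEA001 mutant femurs and 42.1, 58.1, 38.6 and 51.5 in wild-type femurs, against 519.9, 518, 571 and 760.4 in mutant and 418, 421, 518 and 822 in wild-type white adipose tissue. The tissues did not overlap, with a difference of -3.68 ± 0.21 in mutant mice (limma adjusted p = 2.12e-10) and -3.48 ± 0.21 in wild-type mice (adjusted p = 4.11e-10). Sfrp2, its close relative, was higher in mutant femur by 0.93 ± 0.24 (limma adjusted p = 0.00263), against 0.44 ± 0.24 in wild-type mice (adjusted p = 0.115). With the animal, which pairs the tissues, as a fixed block, Sfrp2 was called in wild-type mice too (limma adjusted p = 0.0363).

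**Figure D2:**
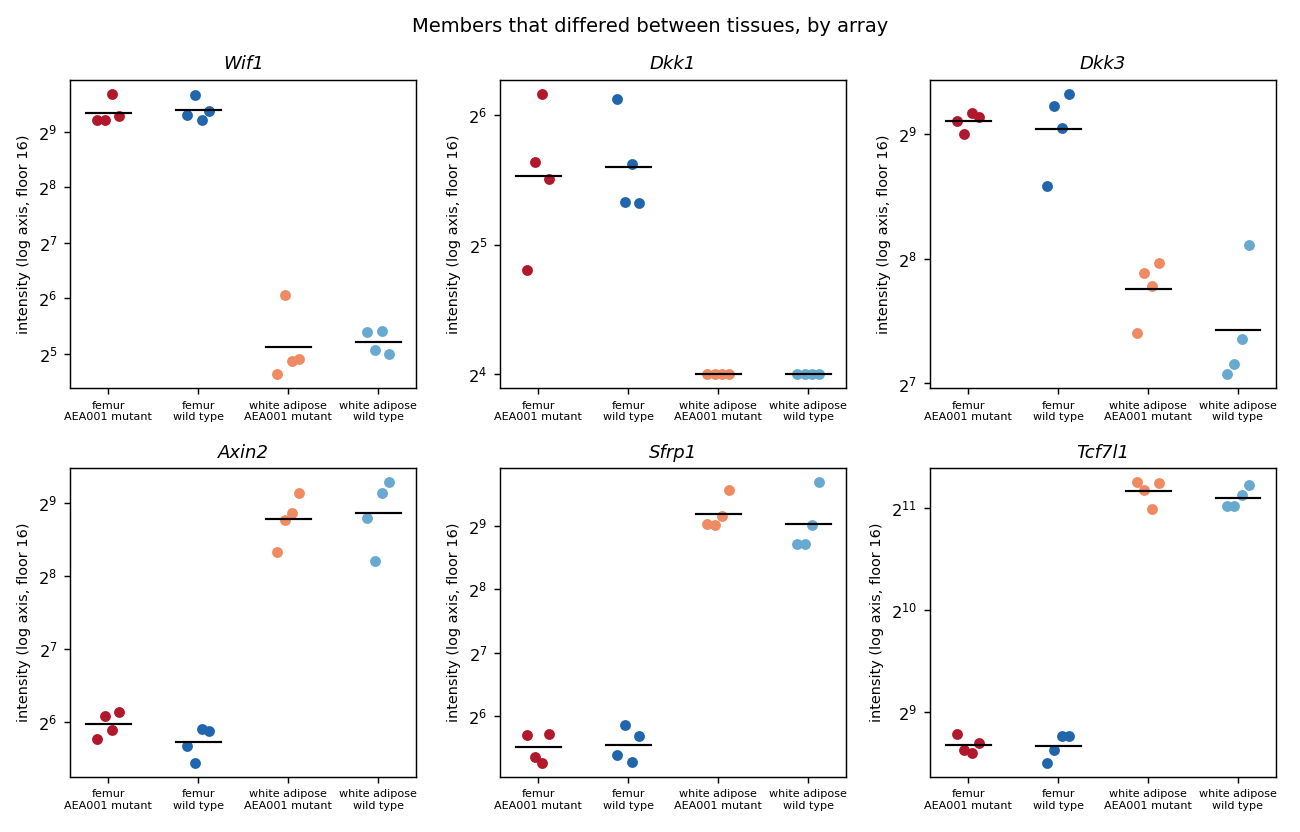
Intensity per array of 6 members on a log2 axis (values below 16 drawn at 16), with the line at the mean log2 of each group of 4. Wif1, Dkk1 and Dkk3 are higher on all 8 femur arrays than on all 8 white adipose arrays, and Axin2, Sfrp1 and Tcf7l1 are lower, in both genotypes.

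The Frizzled and Lrp receptors called in the fit reported here were all lower in femur. Of 7 tested Frizzled genes, Fzd2, Fzd4 and Fzd6 were lower in femur in both genotypes, Fzd8 was called lower in wild-type femur alone, and Fzd3, Fzd7 and Fzd10 were called in neither. The Fzd8 call was lost without wild type femur replicate 1 (limma adjusted p = 0.0623) or wild type white adipose replicate 2 (0.0542). Fzd4, a receptor for Wnts and norrin known for its part in blood vessels, gave 21.4, 32.7, 29.1 and 43.4 in AEA001 mutant femurs and 17.2, 35.6, 14.3 and 33.2 in wild-type femurs, against 271, 199.97, 245 and 135 in mutant and 324, 349, 260.2 and 322 in wild-type white adipose tissue. The tissues did not overlap, with a difference of -2.74 ± 0.29 in mutant mice (limma adjusted p = 3.18e-07) and -3.71 ± 0.29 in wild-type mice (adjusted p = 8.50e-09). Endothelial markers were also lower in femur: the summed intensity of Pecam1, Cdh5 and Tek was between 1027 and 1143 in mutant femurs and between 1062 and 1205 in wild-type femurs, against 3783 to 4109 in mutant and 4230 to 4579 in wild-type white adipose tissue. Their part in the Fzd4 difference was not tested.

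Fzd2 gave 25.2, 31.96, 25.8 and 16.9 in AEA001 mutant femurs and 27.7, 38.1, 14.7 and 45.8 in wild-type femurs, against 198, 212, 187 and 221 in mutant and 196, 219, 239 and 245 in wild-type white adipose tissue. It was 8.39-fold lower in mutant femur (limma adjusted p = 2.35e-08) and 7.55-fold lower in wild-type femur (adjusted p = 4.33e-08), with no overlap. Fzd7 was close in the groups: it averaged 333 ± 13 in mutant femurs and 297 ± 37.3 in wild-type femurs, against 281 ± 19.3 in mutant and 287 ± 45.7 in wild-type white adipose tissue (SD, n = 4 each), and its difference was 0.24 ± 0.11 in mutant mice (limma adjusted p = 0.0679) and 0.06 ± 0.11 in wild-type mice (adjusted p = 0.672).

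The co-receptors Lrp5 and Lrp6 were both lower in femur. Lrp6 gave 104, 100.2, 138 and 99.3 in AEA001 mutant femurs and 66.6, 94.6, 118 and 73.8 in wild-type femurs, against 299, 262, 366 and 281 in mutant and 540.4, 410.04, 351 and 369.98 in wild-type white adipose tissue. The tissues did not overlap, with a difference of -1.45 ± 0.18 in mutant mice (limma adjusted p = 3.21e-06) and -2.26 ± 0.18 in wild-type mice (adjusted p = 1.78e-08). Lrp5, whose loss causes osteoporosis in people, had a smaller difference of -0.74 ± 0.13 in mutant mice (limma adjusted p = 1.13e-04) and -0.70 ± 0.13 in wild-type mice (adjusted p = 1.94e-04). Kremen1, which helps Dkk1 remove Lrp6 from the surface, was lower in femur by -0.91 ± 0.11 in mutant mice (limma adjusted p = 1.48e-06) and -0.91 ± 0.11 in wild-type mice (adjusted p = 1.53e-06).

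In the destruction complex, Axin2 and Apc were lower in femur. Axin2, a scaffold that is itself induced by β-catenin and so limits the signal, gave 54.1, 67.5, 59.2 and 70.2 in AEA001 mutant femurs and 50.7, 43.4, 59.95 and 58.3 in wild-type femurs, against 322, 434, 466 and 559 in mutant and 445, 294, 561 and 620.5 in wild-type white adipose tissue. The lowest white adipose value was above the highest femur value by a wide margin, and the difference was -2.81 ± 0.21 in mutant mice (limma adjusted p = 6.82e-09) and -3.13 ± 0.21 in wild-type mice (adjusted p = 1.76e-09). Apc, the other scaffold, was 2.68-fold lower in mutant femur (limma adjusted p = 8.68e-08) and 2.66-fold lower in wild-type femur (adjusted p = 9.20e-08). Ctnnb1, the pathway's messenger, differed less than these: its brightest probe gave 4043, 4072, 4077 and 3067 in mutant femurs and 3873, 3734, 4377 and 4254 in wild-type femurs, against 2939, 3094, 3504 and 3422 in mutant and 3299, 3048, 3258 and 3209 in wild-type white adipose tissue. Its difference was 0.23 ± 0.10 in mutant mice (limma adjusted p = 0.0551) and 0.34 ± 0.10 in wild-type mice (adjusted p = 0.00731). The second Ctnnb1 probe was called in the other genotype, with 0.46 ± 0.11 in mutant mice (limma adjusted p = 0.00165) and 0.11 ± 0.11 in wild-type mice (adjusted p = 0.392).

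Of the TCF and LEF factors, Tcf7l1, which mostly represses targets, and Tcf7l2 were lower in femur. Tcf7l1 gave 439.7, 393, 386 and 414 in AEA001 mutant femurs and 362, 394, 434 and 433 in wild-type femurs, against 2438, 2309, 2041 and 2422 in mutant and 2076, 2079.7, 2234 and 2395 in wild-type white adipose tissue. These groups were tight and far apart, with a difference of -2.49 ± 0.09 in mutant mice (limma adjusted p = 9.65e-13) and -2.44 ± 0.09 in wild-type mice (adjusted p = 1.17e-12). Tcf7l2 had -2.42 ± 0.14 in mutant mice (limma adjusted p = 2.20e-10) and -2.00 ± 0.14 in wild-type mice (adjusted p = 2.24e-09). Lef1 was at or below 16 on all white adipose arrays and dim in femur, with 7.69, 18.9, 23.1 and -2.79 in mutant femurs and 36.02, 17.1, 20.4 and 16.2 in wild-type femurs, and was not called in mutant mice (limma adjusted p = 0.387) or wild-type mice (adjusted p = 0.0697).

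**Figure D3:**
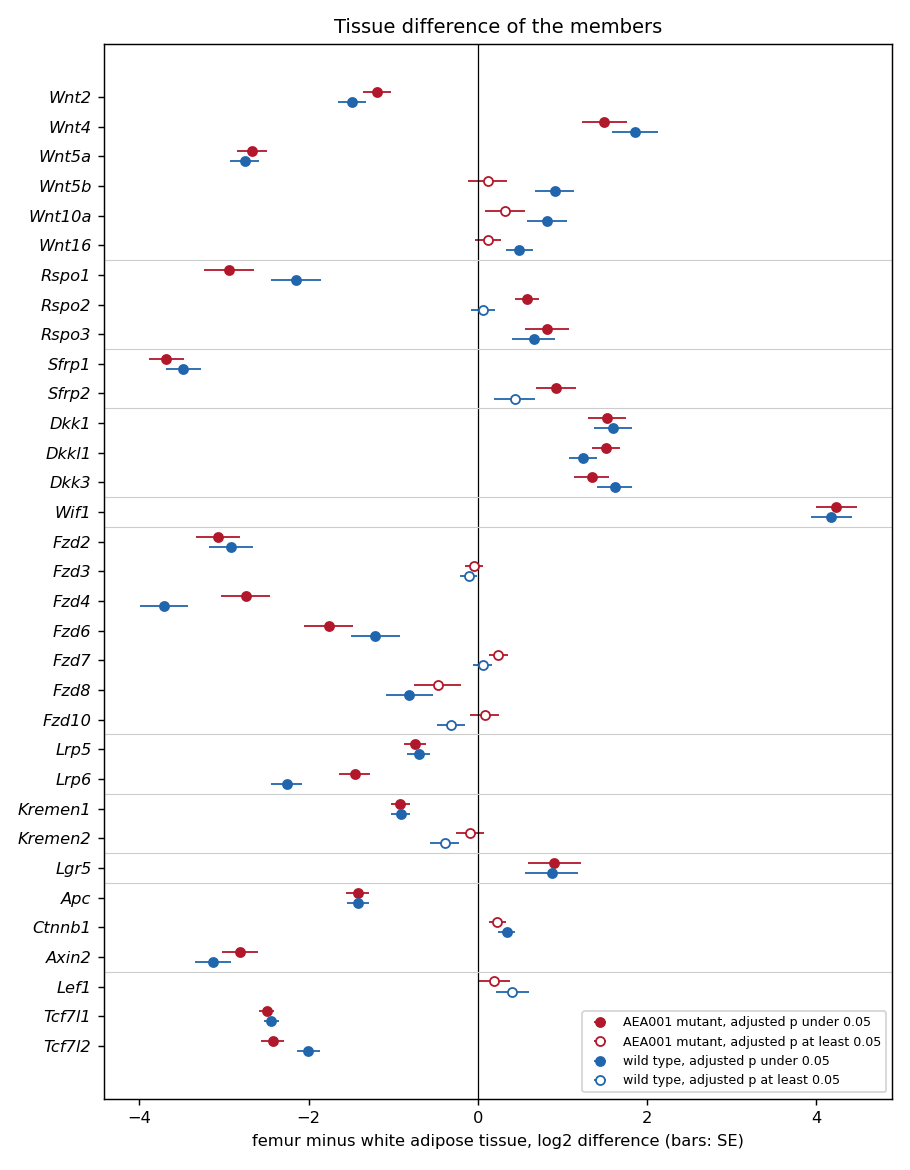
Femur minus white adipose difference (log2, bars are SE) of the 33 tested members by role, with AEA001 mutant mice above wild-type mice in each pair and filled points where the limma adjusted p was under 0.05. Wif1 lies farthest to the right in both genotypes, Sfrp1 farthest to the left in mutant mice and Fzd4 in wild-type mice, and 21 genes are called on the same side in both genotypes.

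In all, 21 genes were called in the same direction in both genotypes. Ctnnb1, Fzd8, Wnt5b, Wnt10a and Wnt16 were called in wild-type mice alone and Rspo2 and Sfrp2 in mutant mice alone, but none of these 7 passed the test of whether the genotype effect differed between tissues, so they are not shown to differ by genotype. Sfrp2 was called in both genotypes once the tissues were paired by animal, as given above.

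Other genes of the pathway, listed by function with earlier results of these data known, gave a similar mix. Of 56 listed, 44 were tested between tissues, and 14 were higher and 18 lower in mutant femur and 17 higher and 18 lower in wild-type femur. Over all probes, 33.2% were higher and 38.3% lower in mutant femur, and 33.6% higher and 38.7% lower in wild-type femur. Within the secretion and extracellular list, 6 of 8 tested genes were lower in femur in both genotypes and none was higher. Wls, which carries Wnt proteins to the surface, differed by -0.90 ± 0.11 in mutant mice and -1.34 ± 0.11 in wild-type mice, and Porcn, which attaches their lipid, by -1.30 ± 0.13 in mutant mice and -1.25 ± 0.13 in wild-type mice. Apcdd1, a membrane inhibitor of Wnt signalling, differed by -4.80 ± 0.16 in mutant mice and -5.31 ± 0.16 in wild-type mice. The genes used elsewhere as readouts of β-catenin split: Ccn4 was higher in femur by 4.49 ± 0.17 in mutant mice and 4.73 ± 0.17 in wild-type mice, while Nkd1 differed by -0.75 ± 0.16 in mutant mice and -0.86 ± 0.16 in wild-type mice. All of these passed limma at an adjusted p under 0.05.

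Between genotypes, no member passed in either tissue. In femur, limma called 0 of 34 member probes and 1 of 14281 probes in all (0.007%). Unadjusted p-values under 0.05 were found for 3 member probes, 1 higher and 2 lower in mutants (8.82%), against 16.9% of all probes, 8.3% higher and 8.59% lower. The 4 mutant arrays did not overlap the 4 wild-type arrays for 2 member probes (5.88%), both lower in mutants, against 9.37% of all probes, 4.38% higher and 4.99% lower. With only 3 and 2 of 34 probes, these shares do not set the members apart from all probes. By brightest probe, 12 genes were positive and 16 negative, within -0.50 and 0.52, and the adjusted p lay between 0.173 and 0.978. The median over the 34 member probes was -0.03, against -0.02 over all probes.

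Apc had the smallest p in femur. It gave 54.1, 42.9, 49.5 and 43.97 in AEA001 mutant femurs, against 68.4, 59.1, 59.9 and 71.9 in wild-type femurs. Every mutant value was below every wild-type value, by -0.45 ± 0.11 (limma adjusted p = 0.173), and the two-sided exact permutation p of 0.0286 is the smallest that 70 relabelings allow. The dimmer of the Tcf7l2 probes did not overlap either, with 2.67, 12.9, 16.8 and 4.23 in mutant femurs, against 25.9, 24.6, 19.3 and 17.9 in wild-type femurs, a difference of -0.42 ± 0.13 (limma adjusted p = 0.196). Only 1 of these mutant values was above 16, so that difference rests on the floor. The brighter Tcf7l2 probe gave 219, 278, 295 and 227 in mutant femurs, against 275, 337, 251 and 275 in wild-type femurs, which overlapped (-0.16 ± 0.14, limma adjusted p = 0.572).

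All 5 ligands tested in femur had a negative difference and none was called. Wnt5b differed by -0.32 ± 0.17 (limma adjusted p = 0.377), Wnt16 by -0.37 ± 0.20 (0.386), Wnt10a by -0.50 ± 0.30 (0.426), Wnt5a by -0.33 ± 0.22 (0.457) and Wnt4 by -0.19 ± 0.18 (0.615). Further Wnt16 and Wnt4 probes gave 0.01 and 0.06, so the sign rests on the probe chosen. Rspo2 gave 26.6, 27.8, 12.1 and 27.6 in AEA001 mutant femurs, against 3.91, 18.99, 10.2 and 14.05 in wild-type femurs. Mutant values were higher on 3 of 4 arrays, by 0.52 ± 0.18 (limma adjusted p = 0.227), with replicate 3 inside the wild-type range. Axin2 differed by 0.25 ± 0.13 (limma adjusted p = 0.383) and Lrp6 by 0.35 ± 0.19 (adjusted p = 0.389). Wif1, Dkk1, Dkk3 and Sfrp1 did not pass and overlapped. Wif1 differed by -0.04 ± 0.14, Dkk1 by -0.07 ± 0.29, Dkk3 by 0.06 ± 0.16 and Sfrp1 by -0.04 ± 0.16, with limma adjusted p between 0.881 and 0.925.

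**Figure D4:**
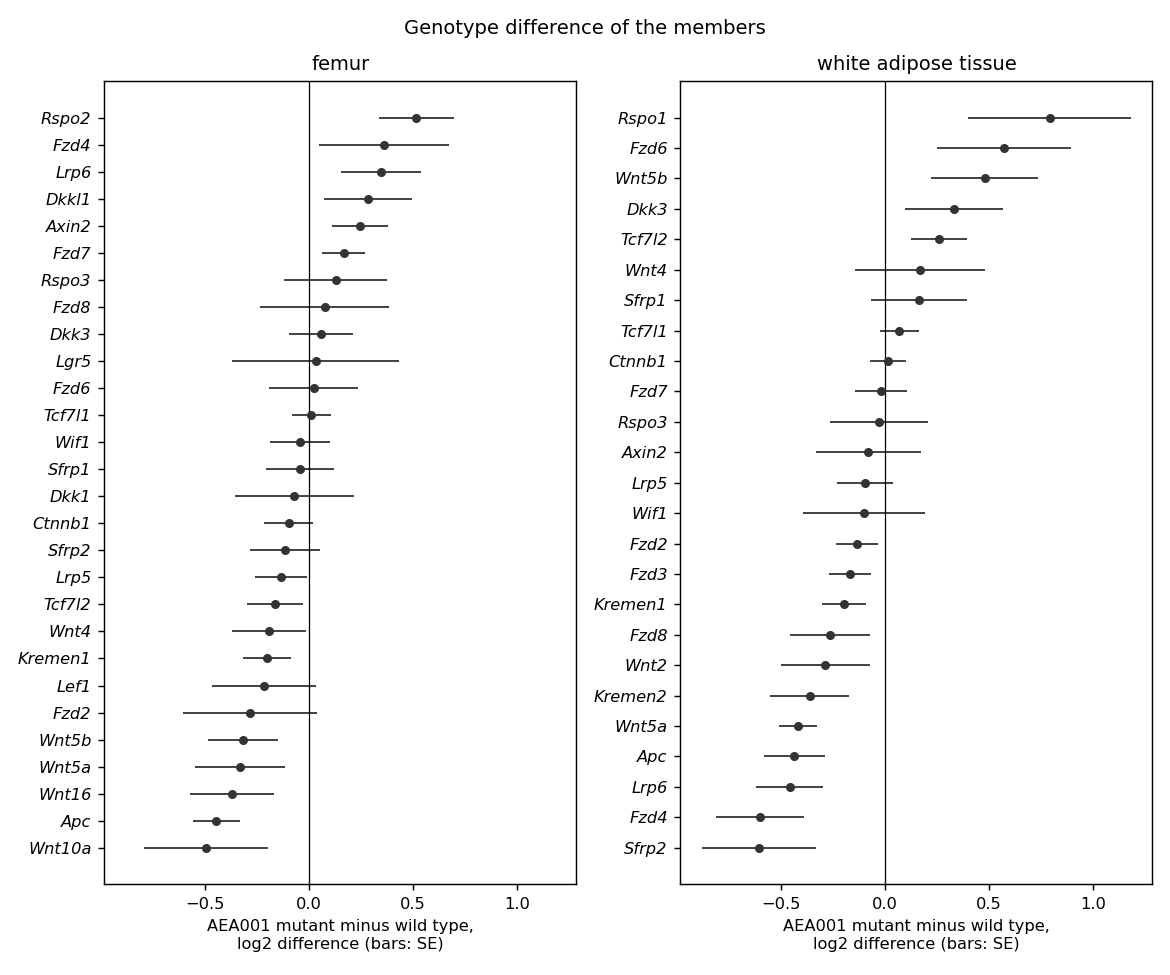
AEA001 mutant minus wild type difference (log2, bars are SE) of each tested member in femur at the left (28 genes) and in white adipose tissue at the right (25 genes), sorted by value. The points lie on both sides of 0 in each tissue, and none passed limma at an adjusted p of 0.05.

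In white fat, limma called 0 of 31 member probes and 2 of 14342 probes in all (0.0139%). Unadjusted p-values under 0.05 were found for 7 member probes, 1 higher and 6 lower in mutants (22.6%), against 26.1% of all probes, 12.7% higher and 13.4% lower. Mutant and wild-type arrays did not overlap for 2 member probes (6.45%), both lower in mutants, against 15.7% of all probes, 8% higher and 7.74% lower. By brightest probe, 9 genes were positive and 16 negative, within -0.61 and 0.79, with adjusted p between 0.112 and 0.948. The median over the 31 member probes was -0.10, against 0.02 over all probes.

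Wnt5a had the smallest p there. Its values, given above, were all below those of wild type in mutant tissue, at 319 ± 32.7 in AEA001 mutant and 424 ± 0.626 in wild-type white adipose tissue (SD, n = 4 each), a difference of -0.42 ± 0.09 (limma adjusted p = 0.112, exact permutation p = 0.0286). Its dimmer probe had the same sign and overlapped (-0.22 ± 0.18, limma adjusted p = 0.459). Apc gave 153, 130.1, 131 and 99.9 in AEA001 mutant white adipose tissue, against 204, 159, 155 and 174 in wild-type tissue. These values did not overlap, and the difference of -0.44 ± 0.15 (limma adjusted p = 0.132, exact permutation p = 0.0286) was close in size to that in femur of the same mice. The difference between the tissues was -0.01 ± 0.19 (limma adjusted p = 0.981).

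The receptors Lrp6 and Fzd4 were lower on average in mutant white adipose tissue and overlapped wild type. Lrp6 differed by -0.46 ± 0.16 (limma adjusted p = 0.138), with 1 mutant array above the lowest wild-type array. Fzd4 differed by -0.60 ± 0.21 (limma adjusted p = 0.142) and its dimmer probe by -0.56 ± 0.22 (adjusted p = 0.161). The endothelial marker sum, given above, was also lower in mutant white adipose tissue with no overlap, and the macrophage sum of Adgre1, C1qa, C1qb and Vsig4 was between 3076 and 3751 in mutant and between 3805 and 4874 in wild-type tissue, likewise with no overlap. Pecam1 and Cdh5 did not overlap, but Tek did, at 1348, 1238, 1409 and 1144 in mutant and 1220, 1295, 1395 and 1314 in wild-type tissue. Adgre1, C1qa and Vsig4 overlapped too, and only C1qb of the macrophage genes did not. Of all probes tested in white adipose tissue, 15.7% did not overlap. The osteoblast and osteocyte sum, mostly Col1a1, did not overlap either, at 1713 to 2906 in mutant and 2939 to 5120 in wild-type tissue. The other marker sums overlapped. Among adipocyte genes, Lep was lower and Adipoq and Plin1 higher in mutant tissue with no overlap, while Cidec and Fabp4 overlapped. The part of any cell type in the Lrp6 and Fzd4 differences was not tested. Sfrp2 gave 39.8, 36.5, 49.8 and 20.6 in mutant tissue, against 48.2, 63.7, 40.6 and 64.4 in wild-type tissue, which overlapped (-0.61 ± 0.27, limma adjusted p = 0.202).

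Rspo1 had the highest positive difference in white adipose tissue, 0.79 ± 0.39 (limma adjusted p = 0.234). Its 4 mutant values lay between 114 and 141, whereas the wild-type values spread over both sides of them, so the groups overlapped. Markers of epithelium and mesothelium (Krt8, Krt18, Krt14, Msln and Upk3b) also spread among the wild-type arrays: their sum was 4836, 4635, 5579 and 4941 in mutant tissue, against 2916, 3746, 3985 and 6428 in wild-type tissue. In both Rspo1 and this sum, wild type replicate 4 was highest and replicate 1 lowest. Upk3b made up most of the sum, and Krt14 had another order, with 123, 116, 39.4 and 109.8 in wild-type tissue. Their part in the Rspo1 values was not tested. Dkk3 differed by 0.33 ± 0.23 (limma adjusted p = 0.381) and Axin2 by -0.08 ± 0.25 (adjusted p = 0.857).

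**Figure D5:**
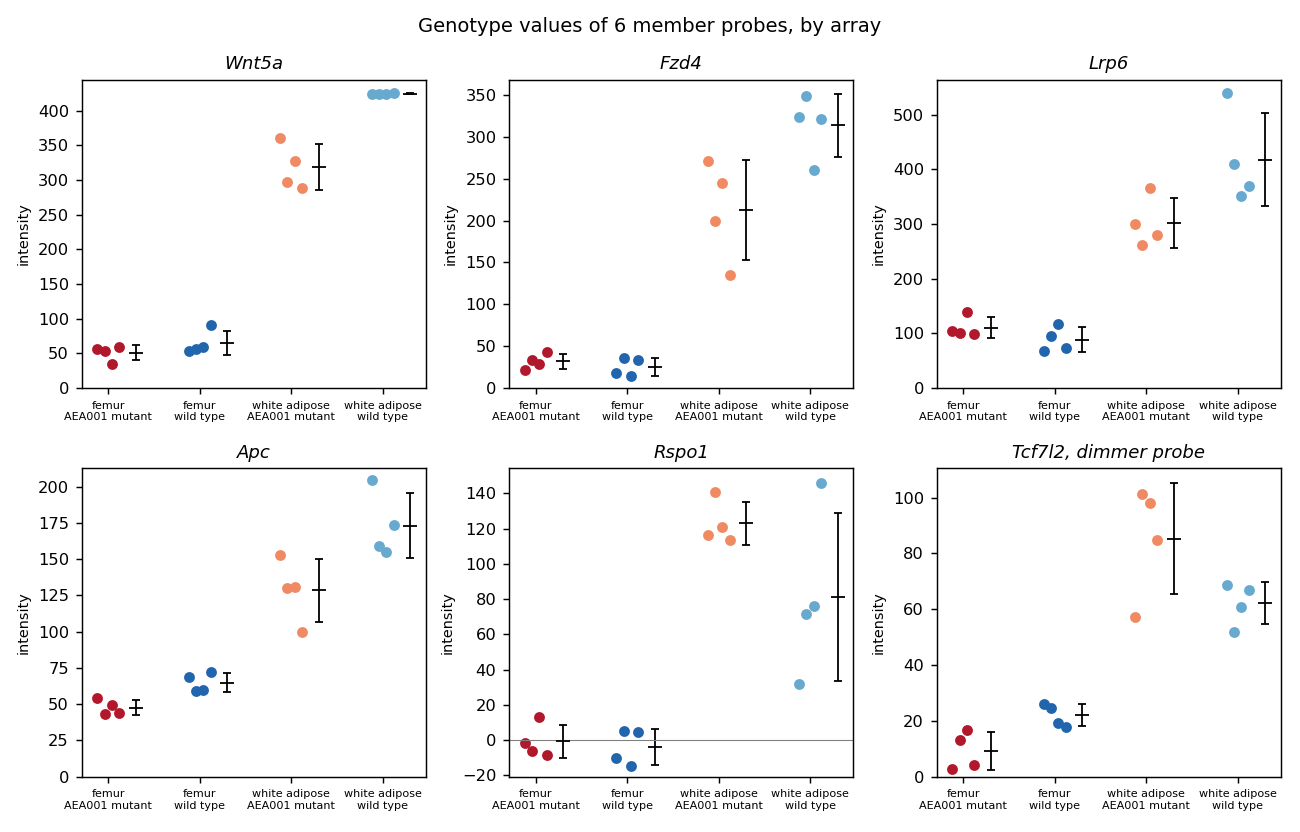
Intensity per array on a linear axis of 6 probes named for their genotype values, with the mean and SD of each group of 4 beside its points. In white adipose tissue the AEA001 mutant values of Wnt5a and Apc lie below all wild-type values, while those of Fzd4, Lrp6, Rspo1 and the dimmer Tcf7l2 probe overlap wild type.

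Whether the genotype effect differed between tissues was tested in 1 fit of all 16 arrays. Limma called 1 of 42 member probes (2.38%), with a negative difference, against 7.37% of all 15993 probes, 4.08% positive and 3.29% negative. This was the dimmer Tcf7l2 probe, which gave 2.67, 12.9, 16.8 and 4.23 in AEA001 mutant and 25.9, 24.6, 19.3 and 17.9 in wild-type femurs, and 57.3, 101, 97.9 and 84.6 in mutant and 68.7, 51.96, 60.9 and 66.8 in wild-type white adipose tissue. Only 1 of the 4 mutant femurs was above 16, so the femur effect rests on the floor. Mutants were lower in femur, by -0.42 with that floor, and higher on 3 of 4 arrays in white adipose tissue, by 0.43. The femur minus white adipose difference of these effects was -0.85 ± 0.24 (limma adjusted p = 0.044). With the animal as a fixed replicate block, the adjusted p was 0.122, and with it as a random block 0.0548. Without the white fat array of AEA001 mutant replicate 2 the difference was -0.76 ± 0.24 (limma adjusted p = 0.0747), and over the omissions of single arrays the adjusted p lay between 0.0257 and 0.0911. The call was lost without any 1 of the 4 AEA001 mutant femurs, without wild type femur replicate 1 or 2, and in white fat without mutant replicate 2, 3 or 4 or wild type replicate 1 or 2. The brighter Tcf7l2 probe had the same sign and was not called, at -0.42 ± 0.20 (limma adjusted p = 0.176).

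Lrp6 was next, with a positive difference in femur and a negative one in white adipose tissue. The difference of its effects was 0.81 ± 0.26 (limma adjusted p = 0.0677), and it passed the threshold without the femur array of wild type replicate 3 (0.0212), without the white adipose array of wild type replicate 3 (0.0476) and without both animals that share an identifier (0.0349). Wnt5b had -0.79 ± 0.32 (limma adjusted p = 0.129), Fzd4 0.96 ± 0.40 (adjusted p = 0.138) and Rspo2 0.52 ± 0.20 (adjusted p = 0.111). Since Rspo2 was set to 16 on all 8 white adipose arrays, its value repeats the femur difference and tells nothing of white fat.

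Among the other genes of the pathway, limma called none between genotypes, of 38 tested in femur and 39 in white fat. Over all probes it called 0.007% in femur and 0.0139% in white fat. Unadjusted p-values under 0.05 were found for 16.9% of all probes in femur, 8.3% higher and 8.59% lower. In white fat they were found for 26.1% of all probes, 12.7% higher and 13.4% lower. Of the pathway genes with such p-values, Dvl1, Gsk3b, Cby1, Bcl9l, Ryk and Celsr2 were lower in mutant femur (6 lower, 0 higher). In mutant white adipose tissue, Gsk3b was higher and Cd44 and Tnfrsf11b lower. Gsk3b, the kinase that marks β-catenin for degradation, thus had opposite signs, at -0.41 ± 0.14 in femur (limma adjusted p = 0.210), against 0.53 ± 0.17 in white adipose tissue (adjusted p = 0.124). Its genotype effect differed between tissues by -0.94 ± 0.22 (limma adjusted p = 0.0295). Celsr2, a planar polarity cadherin, was the other of 2 called among 44 tested, at -1.49 ± 0.43 (limma adjusted p = 0.0485). With the animal as a fixed block, limma called 0 of 15993 probes for this difference, against 1178 (7.37%) without a block.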

How the data were processed

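The data are 16 Illumina bead arrays of total RNA, from both tissues of 8 mice. Per the labels' protocols, RNA was extracted with Trizol, cleaned on columns and amplified to biotinylated cRNA. GenomeStudio 2011.1 is named per the submitters' processing notes. The deposited intensity values of 25697 probes are the authors' normalized ones; the background correction and the normalization method were not given in the sources used here. Once sorted, the values of any array were within 0.797 of the others', so differences in total RNA between arrays are not visible. A second table, with 16 columns that match no sample label, was not used.

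A floor of 16 was applied before log2, which understates differences of dim probes. Probes above 16 on at least 4 of the arrays fitted were tested in limma 3.58.1 (lmFit and eBayes in R 4.3.3), two-sided, with p adjusted by Benjamini-Hochberg over all tested probes and a threshold of 0.05. Genotypes were compared on the 8 arrays of a tissue. The tissue differences and the difference of genotype effects came from 1 fit of 16 arrays with 4 groups and no block. Exact permutation tests used 70 relabelings, with a smallest p of 0.0286. The fits were also run on simulated data, with changes put into brighter probes and larger than the members' genotype differences. That run does not bear on small differences or dim probes. Symbols came from the platform annotation and promoters from RefSeq.

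The femur and white adipose samples of a mouse carry the same identifier in the labels, so they are paired by animal. The deviations of such pairs from their group means correlated between -0.24 and 0.03. Samples of different genotype share only a replicate number. In white adipose tissue, mutant and wild-type arrays of the same number correlated at 0.31, 0.09, -0.05 and 0.32 for replicates 1 to 4. In femur these correlations lay between -0.07 and 0.05. What the replicate number stands for is not given, and the cause was not tested. No batch other than tissue and genotype is given in the labels.

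The members, the marker and pathway lists and the tests were chosen with earlier results of these data known. Named are the members called in a genotype comparison or in the difference between tissues, the 6 genes of smallest p in each genotype comparison, the 8 of smallest p in each direction between wild-type tissues, the brightest member of each family in each tissue, and Axin2, Lef1, Tcf7, Ctnnb1, Lrp5, Lrp6, Sost, Dkk1 and Wif1 whatever their values (Tcf7, though listed, was not analysed here); other members are named for their calls. Alternatives covered the floor, scale, filter, normalization, variance model, array weights, blocks, probes and omission of arrays.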

Additional observations from a re-analysis of the deposited data

Results flagged for a closer look

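In 10 of 94 groups of 4 arrays, 1 value stood apart by Dixon's ratio on log2 values, those below 16 set to 16, where chance gives about 1 in 20 for groups with no floor. In 5 of the 10 (Dkkl1, Rspo2 in wild type, Sost, Wnt16 and Wnt4) the other 3 values were all set to 16, so that any value above 16 stood apart by construction, and the ratio says nothing about their spread. In AEA001 mutant femurs, replicate 3 stood apart for 4 genes. It gave 824 for Wif1, against 590 to 624 on the others, 138 for Lrp6, against 99.3 to 104, 12.1 for Rspo2, against 26.6 to 27.8, and 30.5 for Sost, against 2.03 to 7.42. The same array had the highest osteoblast and osteocyte marker sum of the mutant femurs, 35256, with the others between 27883 and 32147; its part in these values was not tested. Replicate 4 of the AEA001 mutant femurs stood apart for Ctnnb1, with 3067, against 4043 to 4077, and for Wnt16, with 22.4, against -3.84 to 12.

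In wild-type femurs, Fzd7 was 353 on replicate 4, against 273 to 282 on the others, and Rspo2 was 19.0 on replicate 2, against 3.91 to 14.0. In white adipose tissue, Dkkl1 was 16.5 on AEA001 mutant replicate 2, against -6.11 to 4.08 on the other mutant arrays, and Wnt4 was 34.0 on wild type replicate 4, against 5.74 to 13.7 on the other wild-type arrays.

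The genotype effect on the dimmer Tcf7l2 probe differed between femur and white adipose tissue by -0.85 ± 0.24 (limma adjusted p = 0.0440). The call was lost with the animal as a block, as given above.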

How the results depend on the processing

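The counts of members called between genotypes were 0 in femur and 0 in white adipose tissue under every alternative run, arrays left out included. Over all probes, the femur count was 1 of 14281. It was 710 of 14091 (5.04%) without wild type femur replicate 3 and 439 of 13829 (3.17%) without both animals that share an identifier. In 1 fit of all 16 arrays it was 152 of 15993 (0.95%), and otherwise at most 4. In white fat it was 2 of 14342, 914 of 15993 (5.7%) in 1 fit of all 16 arrays, and otherwise at most 11. At an unadjusted p under 0.05, limma gave 3 member probes in femur and 7 in white fat. Between tissues the count was between 26 and 32 in AEA001 mutant mice (28 to 30 with single arrays left out) and between 26 and 36 in wild-type mice (28 to 33). The single call for the difference of genotype effects did not hold under several settings: the count of member probes was 0 with a floor of 32, 0 with a mean-variance trend and robust prior, 0 with the animal as a fixed replicate block, 0 with the animal as a random replicate block, 2 on the offset scale and 3 with array weights, and between 0 and 4 with single arrays left out; the cause was not tested. The Tcf7l2 call was lost, among others, with a floor of 32 (limma adjusted p = 0.189) and without both animals that share an identifier (0.0851). Lrp6 and Wnt5b passed with array weights (0.0353 and 0.0426). Without the white adipose array of wild type replicate 4, Wnt5b (0.0236), Dkk3 and Rspo1 passed. The dimmer Fzd4 probe passed on the offset scale, and Rspo2 without the femur array of AEA001 mutant replicate 3 (0.0240). Rspo1 in femur and Rspo2 in white fat were at or below 16 on all arrays, so their values rest on the other tissue alone. Over all probes, this count was 1178, 2456 with array weights, 0 with the animal as a fixed block, 1888 without both animals that share an identifier, and 85 (without the white fat of AEA001 mutant replicate 4) to 2253 (without the femur array of wild type replicate 3) with single arrays left out. The replicate number as a block left both genotype counts at 0. The animal as a fixed replicate block added 2 wild-type tissue calls, Sfrp2 (limma adjusted p = 0.0363) and Kremen2 (0.0246). Between tissues, 4 uncalled genes passed under some setting in mutant mice (Ctnnb1, Fzd7, Fzd8 and Wnt10a) and 6 in wild-type mice (Fzd10, Fzd3, Kremen2, Lef1, Rspo2 and Sfrp2). Differences that changed sign were all uncalled ones. In femur between genotypes, other probes gave 0.0138 for Wnt16, 0.0620 for Wnt4 and -0.0272 for Dkk3, array weights gave -0.00428 for Dkk3 and 0.00429 for Dkk1, and omission of single arrays gave -0.0946 to 0.152 for Dkk3, -0.155 to 0.0531 for Wif1, -0.136 to 0.0606 for Sfrp1 and -0.284 to 0.170 for Dkk1. In white fat between genotypes, Axin2 gave 0.0383 with array weights and -0.298 to 0.0661 with single arrays left out. The difference of genotype effects of Apc gave 0.0844 on the offset scale and -0.123 to 0.0810 with single arrays left out. Between tissues, Fzd7 in wild-type mice gave -0.0158 without both animals that share an identifier and -0.0389 to 0.123 with single arrays left out, and in mutant mice Fzd10 gave -0.0416 on the offset scale and Fzd3 0.00460 with cyclic loess. Dim probes near 16 limit the ligands most, since 10 of 19 Wnt genes never exceeded it.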

Other observations

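Some members followed an order among the 4 wild-type white adipose arrays that was noticed after the values were seen. For 10 of the 25 member genes tested in white adipose tissue, each by its brightest probe (40%), replicate 4 was highest and replicate 1 lowest, against 14.1% of all 14342 probes tested there. The 10 were Dkk3, Fzd2, Lrp5, Rspo1, Sfrp1, Tcf7l1, Tcf7l2, Wnt4, Wnt5a and Wnt5b. Sfrp1 ranged between 418 and 822 on these arrays and Wnt5a between 423.8 and 425.2. The marker sum of epithelium and mesothelium had the same highest and lowest arrays, with 2916 on replicate 1 and 6428 on replicate 4. Upk3b gave most of that sum, 4917 of 6428 on replicate 4, and Krt14 had replicate 1 highest and replicate 3 lowest. Their part in the member values was not tested, and 4 arrays of 1 group carry no replicate of this order.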
